A study of Mus musculus with 12 samples.

Results

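The genes encoding 9 hepatocyte transcription factors, *Hnf4a*, *Foxa1*, *Foxa2*, *Foxa3*, *Cebpa*, *Nr1i2*, *Nr1i3*, *Prox1* and *Nr5a2*, were followed by RNA-seq in GFP(+) liver cells before and after bile duct ligation (BDL), an operation that blocks the flow of bile. They were taken by gene name from the 16971 genes of the authors' table, which holds all 9. The cells came from mice of genotype Prom1CreERT2-nLacZ/+;Rosa26Lsl-GFP/+, labelled C57BL/6 (by the study's methods, C57BL/6N for the *Prom1* line and C57BL/6J for the *Rosa26* line), in which tamoxifen turns on GFP for good in cells that use the *Prom1* promoter and in their progeny. All mice, controls included, carried both alleles and had tamoxifen 7 days before surgery. GFP(+) cells were sorted from the nonparenchymal fraction of the liver, prepared by serial centrifugation, on day 0 (labelled sham), on BDL day 3 and on BDL day 14. Of 12 labelled libraries, 10 stand behind the table, 3 of 3 on day 0, 3 of 3 on BDL day 3 and 4 of 6 on BDL day 14, and the sexes were mixed unequally over the groups.

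HNF4A, the FOXA proteins, C/EBP alpha, PROX1 and LRH-1 (encoded by *Nr5a2*) bind one another's genes and keep the hepatocyte program on, from albumin and clotting factors to gluconeogenesis and bile acid synthesis. The nuclear receptors PXR (*Nr1i2*) and CAR (*Nr1i3*) sense foreign compounds and bile acids and switch on detoxifying enzymes. In the adult liver, HNF4A is a standard marker that separates hepatocytes from cholangiocytes, which line the bile ducts. Some of these factors also work in other liver cells: C/EBP alpha in myeloid cells and PROX1 in lymphatic endothelium.

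*Hnf4a* fell in the GFP(+) cells at both times after BDL, and *Nr1i2* fell on day 14. *Cebpa*, the most abundant of the 9, was not lower at either time. The remaining members were scarce. Each is described below by the authors' mean per group, in counts normalized to the upper quartile of each library, and by the range in which every library of the group must lie. Values per library were not analysed here, and these ranges follow from the group means, the highest library and the geometric mean that the table gives for each gene. Adjusted p-values are from a gamma fit with variances moderated by limma, which was chosen after the columns of the table had been seen. They were adjusted over the 12891 genes with a summed normalized count of 10 or more. *Foxa1*, *Foxa2* and *Foxa3* were below this minimum and were not tested. Depth per library is unknown, and the labels do not name the mouse behind each library, so p-values measure the spread between these libraries only.

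The 250 bases before the transcription start are given for *Hnf4a*, *Nr1i2* and *Foxa3*, the members whose day 0 libraries were all higher than every BDL library, and for *Cebpa* as the member that was not lower. The sequences are from RefSeq (GRCm38.p6), on the strand of the gene and 5′ to 3′, and capitals mark a match to a searched motif on either strand. The *Hnf4a* window lies before the downstream of 2 starts, at chr2:163546905-163547154 on the plus strand, inside the gene and mostly intronic, with its first bases in an exon of a non-coding transcript. The *Nr1i2* window is chr16:38294825-38295074 on the minus strand, that of *Foxa3* is chr7:19023540-19023789 on the minus strand and that of *Cebpa* is chr7:35119043-35119292 on the plus strand. The last 3 lie just outside the annotated genes. The *Hnf4a* window before the upstream start is not shown and holds no match to a searched motif.
Hnf4a: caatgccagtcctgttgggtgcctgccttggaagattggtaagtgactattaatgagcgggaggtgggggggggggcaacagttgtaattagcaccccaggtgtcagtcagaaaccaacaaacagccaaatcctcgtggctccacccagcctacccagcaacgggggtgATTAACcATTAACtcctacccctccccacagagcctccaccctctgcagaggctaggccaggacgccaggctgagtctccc
Nr1i2: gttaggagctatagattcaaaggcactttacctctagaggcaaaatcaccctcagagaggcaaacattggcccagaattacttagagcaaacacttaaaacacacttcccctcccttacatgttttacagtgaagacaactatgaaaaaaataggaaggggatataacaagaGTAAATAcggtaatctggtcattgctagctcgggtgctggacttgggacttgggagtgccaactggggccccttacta
Foxa3: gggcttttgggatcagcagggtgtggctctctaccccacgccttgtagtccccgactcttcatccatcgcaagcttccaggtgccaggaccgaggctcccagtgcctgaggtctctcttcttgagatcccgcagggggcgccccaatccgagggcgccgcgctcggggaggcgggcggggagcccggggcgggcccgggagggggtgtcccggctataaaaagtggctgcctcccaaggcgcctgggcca
Cebpa: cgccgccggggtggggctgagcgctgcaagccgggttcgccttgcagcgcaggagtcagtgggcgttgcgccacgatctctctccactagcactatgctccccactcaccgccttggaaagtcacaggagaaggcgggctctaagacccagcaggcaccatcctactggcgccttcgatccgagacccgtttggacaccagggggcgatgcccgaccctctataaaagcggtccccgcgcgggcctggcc

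The *Hnf4a* window holds a pair of HNF1 motifs (letters GTTAAT, one side of a palindrome) on the minus strand, from 81 to 76 and from 74 to 69 bases before the start. HNF1 proteins are homeodomain factors of liver and bile duct. Both matches are on the same strand, so their exact letters repeat in the same direction. Only exact letters were searched, and a palindrome with mismatches was not looked for. At least 1 HNF1 motif is found in 6.44% of the 32817 promoters of the RefSeq table. The *Nr1i2* window holds a FOXA motif (TGTTTAC or TATTTAC) on the minus strand, 78 to 72 bases before the start, which 5.76% of the promoters hold. No letters of these motifs, of an HNF4 motif (CAAAGTCC, in 1.2% of promoters), of the nuclear receptor motif AGGTCA (14.0%) or of a C/EBP motif (TTGCGCAA, TTGCACAA or TTGTGCAA, 1.06%) are in the *Foxa3* and *Cebpa* windows. Over all 14 annotated starts of the 9 genes, FOXA letters were also found before *Foxa1*, an HNF1 motif before 1 start each of *Foxa2* and *Nr5a2*, and AGGTCA before 1 start of *Nr5a2*.

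*Hnf4a* encodes the nuclear receptor at the centre of the hepatocyte program and lies at chr2:163506808-163572910 on the plus strand of mm10. Its mean was 27.8 normalized counts on day 0, 6.47 on BDL day 3 and 3.74 on BDL day 14. The 3 day 0 libraries must lie between 13.7 and 39.3, the 3 of BDL day 3 between 3.78 and 9.56 and the 4 of BDL day 14 between 2.14 and 5.71. Every day 0 library was thus higher than every BDL library, while the ranges of the BDL groups overlap. *Hnf4a* fell by 2.10 on the log2 scale on BDL day 3 (SE 0.39, limma-moderated gamma fit, adjusted p = 0.00906) and by 2.89 on BDL day 14 (SE 0.37, adjusted p = 0.000299 by the same fit). That is 4.30-fold and 7.43-fold lower than on day 0. Between BDL day 14 and BDL day 3 the log2 ratio was -0.79 (SE 0.37, limma-moderated adjusted p = 0.248). The highest library, at 39.2 normalized counts, exceeds what the totals of the BDL groups could hold, so it was a day 0 library, with 47.0% of the day 0 total. Without it the log2 ratios were -1.77 on day 3 (limma-moderated adjusted p = 0.0418) and -2.56 on day 14 (limma-moderated adjusted p = 0.00217). The antisense gene *Hnf4aos* overlaps *Hnf4a*, and whether reads were counted by strand is not given in the sources used here. *Hnf4aos* had means of 0.128, 0.304 and 0.082.

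**Figure D1:**
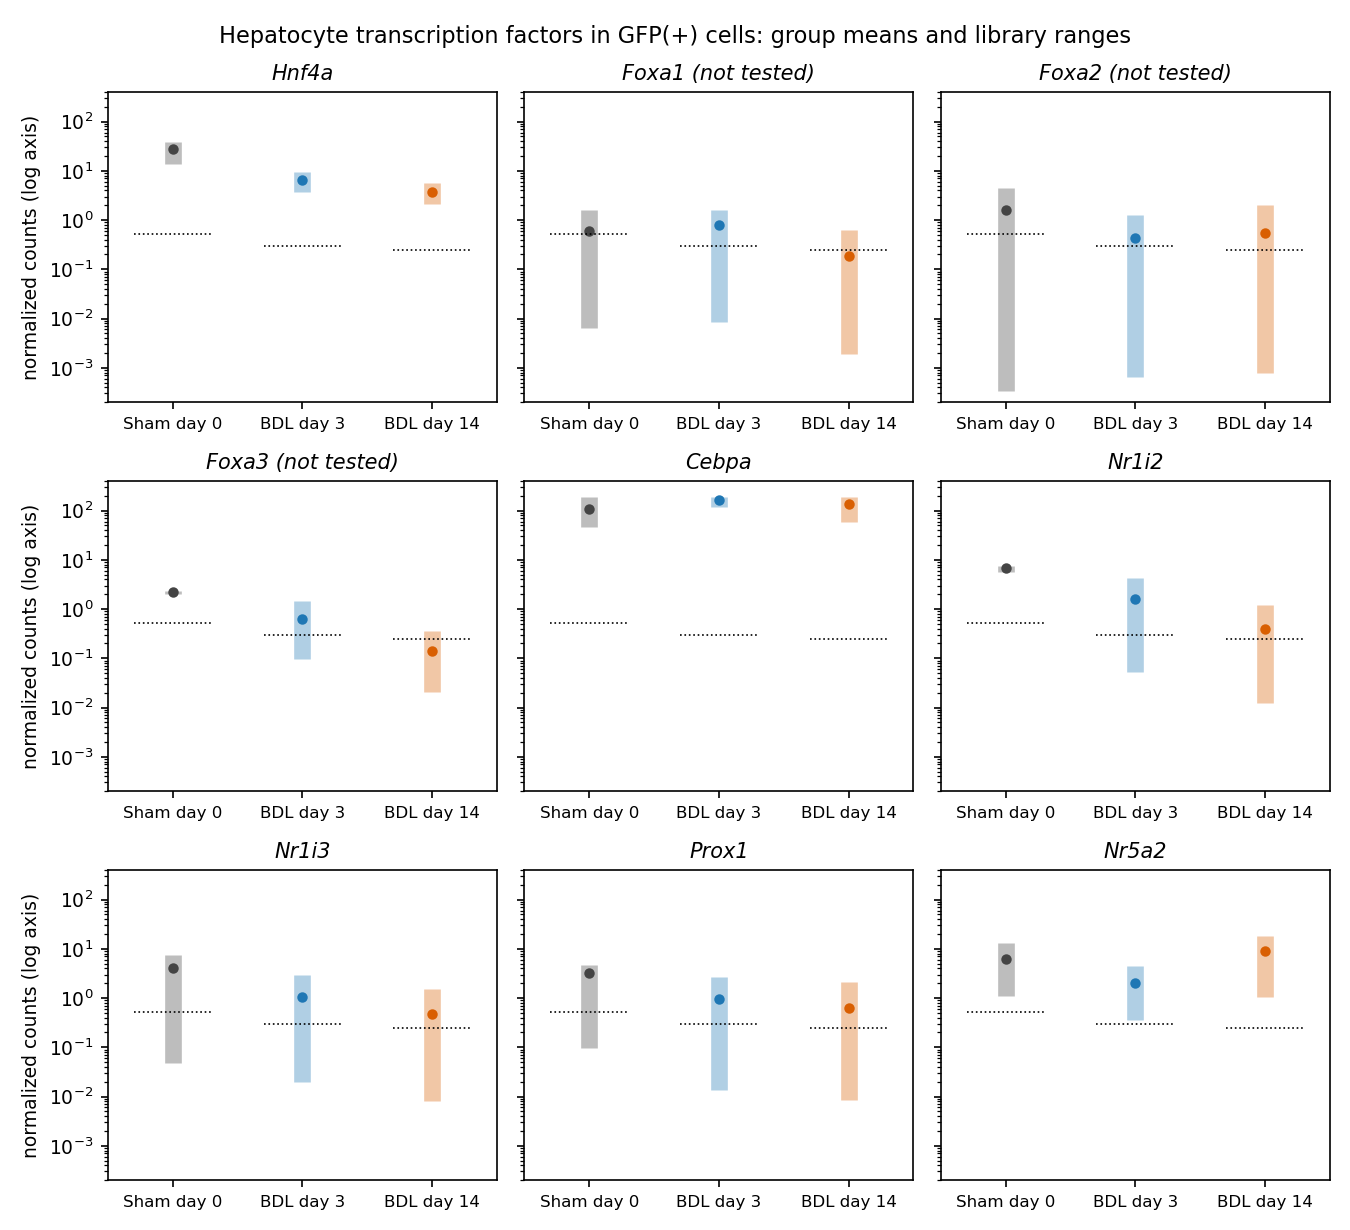
Normalized counts on a log axis for each of the 9 genes in the 3 groups. Points are the authors' group means, bars span the range in which every library of the group must lie, and dotted lines are the floor of each group (0.512, 0.2916 and 0.244). The day 0 bars of *Hnf4a*, *Nr1i2* and *Foxa3* lie wholly above both BDL bars, and *Cebpa* has means of 108, 163 and 137.

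PXR, encoded by *Nr1i2* (chr16:38248323-38294824, minus strand), switches on drug-metabolizing enzymes and transporters. Its mean was 6.99 on day 0, 1.58 on BDL day 3 and 0.387 on BDL day 14. Day 0 libraries lie between 5.66 and 7.65, those of BDL day 3 are at most 4.23 and those of BDL day 14 at most 1.22. No BDL library reached the lowest day 0 library. *Nr1i2* fell by 4.17 on the log2 scale on BDL day 14, or 18.1-fold (SE 0.87, limma-moderated adjusted p = 0.00945). With variances that were not moderated, this adjusted p was 0.0532, and without the highest library of day 0 it was 0.0217. *Nr1i2* reached the minimum summed count for testing only through its day 0 libraries. In a fit of all listed genes, the limma-moderated adjusted p on BDL day 14 was 0.0102. With a pseudocount of 1 added to the means, the log2 ratio was smaller, at -2.53. On BDL day 3 the log2 ratio was -2.15 with a wide error (SE 0.93, limma-moderated adjusted p = 0.198), although the libraries of the groups do not overlap. From BDL day 3 to BDL day 14 it was -2.03 (SE 0.87, limma-moderated adjusted p = 0.21).

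CAR, encoded by *Nr1i3* (chr1:171213970-171220701, plus strand), shares many target genes with PXR. Its mean was 4.01 on day 0, 1.07 on BDL day 3 and 0.467 on BDL day 14. A single library reached 7.5 and made up 62.3% of what was measured on day 0, and the possible ranges of all groups overlap. The log2 ratio was -1.91 on BDL day 3 (SE 1.14, limma-moderated adjusted p = 0.361) and -3.10 on BDL day 14 (SE 1.06, limma-moderated adjusted p = 0.0776), so neither passed. Without that library the day 0 mean was 2.27 and the log2 ratios were -1.08 and -2.28. RXR alpha, encoded by *Rxra*, is the partner with which both receptors bind DNA, and it had 22.1 normalized counts per kb of exon on day 0 against 0.909 for *Nr1i3*. Its means were 121, 205 and 89.2. Its log2 ratio on BDL day 14 was -0.44 (SE 0.36, limma-moderated adjusted p = 0.461).

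LRH-1, encoded by *Nr5a2* (chr1:136842571-136960448, minus strand), governs genes of bile acid synthesis and cholesterol transport. It was the tested member besides *Cebpa* whose mean was higher on BDL day 14 than on day 0, with means of 6.08 on day 0, 2.01 on BDL day 3 and 9.03 on BDL day 14. Against day 0 its log2 ratio was -1.60 on BDL day 3 (SE 0.70, limma-moderated adjusted p = 0.193) and 0.57 on BDL day 14 (SE 0.66, limma-moderated adjusted p = 0.63). From BDL day 3 to BDL day 14 it was 2.17 (SE 0.66, limma-moderated adjusted p = 0.0839), and no comparison passed. Its highest library, at 18.5, was on BDL day 14 and held 51.2% of that group's total. Without it the BDL day 14 mean was 5.87, the log2 ratio was -0.05 to day 0 and 1.55 to BDL day 3 (limma-moderated adjusted p = 0.233). All 3 groups can overlap.

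The FOXA proteins are pioneer factors that open chromatin for HNF4A and other liver factors, and all 3 genes were near the lowest levels the table can show. *Foxa3* (chr7:19013284-19023538, minus strand) had means of 2.23, 0.64 and 0.14, the last at the floor of BDL day 14. The floor is 4 times the lowest mean of a group, on the assumption that the lowest mean stands for about 1 read per library. Its day 0 libraries were close together, between 2.06 and 2.31, while those of BDL day 3 were at most 1.44 and those of BDL day 14 at most 0.351. Every day 0 library was thus higher than every BDL library. The log2 ratio on BDL day 3 was -1.80, and *Foxa3* was at least 9.14-fold lower on BDL day 14 than on day 0 when the day 14 mean is put at that floor. With a pseudocount of 1 added to the means, the log2 ratio on BDL day 14 was -1.50. It had a summed normalized count of 9.17, just under the minimum. In a fit of all listed genes, the limma-moderated adjusted p was 0.312 on BDL day 3 and 0.0149 on BDL day 14.

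*Foxa2* (chr2:148042877-148046969, minus strand) had means of 1.63, 0.424 and 0.544. Of its day 0 total, 92.2% came from 1 library at 4.51 normalized counts. Without that library the day 0 mean was 0.19, under the floor, and the log2 ratios turned from -1.94 to 1.16 on BDL day 3 and from -1.58 to 1.52 on BDL day 14. *Foxa1* (chr12:57540628-57546916, minus strand) had means of 0.614, 0.795 and 0.184, the last at the floor. Its library ranges overlap in all groups. Against day 0 the log2 ratio on BDL day 14 was -1.74 as deposited, -1.04 after quantile normalization of the group means and -0.45 with a pseudocount of 1, and in a fit of all listed genes the limma-moderated adjusted p was 0.345.

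C/EBP alpha, encoded by the single-exon gene *Cebpa* (chr7:35119293-35121928, plus strand), drives metabolic genes of the hepatocyte and is also needed for the making of myeloid cells. Its means were 108 on day 0, 163 on BDL day 3 and 137 on BDL day 14. The libraries lie between 47.0 and 185 on day 0, between 116 and 186 on BDL day 3 and between 57.7 and 186 on BDL day 14, and the groups can overlap. The log2 ratio was 0.59 on BDL day 3 (SE 0.30, 95% interval -0.05 to 1.24, limma-moderated adjusted p = 0.254) and 0.34 on BDL day 14 (SE 0.28, 95% interval -0.26 to 0.95, limma-moderated adjusted p = 0.475). Each interval leaves out a fall as large as that of *Hnf4a*. Its relatives had means of 115, 104 and 43.4 for *Cebpb*, of 68.2, 62.3 and 47.4 for *Cebpg* and of 32.5, 25.4 and 25 for *Cebpd*. *Cebpb*, an inducible relative in injury and inflammation, fell by 1.41 on the log2 scale on BDL day 14 (SE 0.37, limma-moderated adjusted p = 0.022), and *Cebpd* and *Cebpg* did not pass at either time.

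PROX1, encoded by *Prox1* (chr1:190118035-190170714, minus strand), is a homeodomain factor of hepatocytes that is also the master regulator of lymphatic endothelium. Its means were 3.2, 0.953 and 0.625, and its log2 ratios to day 0 were -1.75 (SE 1.16, limma-moderated adjusted p = 0.417) and -2.36 (SE 1.09, limma-moderated adjusted p = 0.181). The highest library, at 4.74, held 49.4% of the day 0 total. The antisense gene *Prox1os* overlaps *Prox1* and had means of 2.11, 0.0729 and 0.374, so some of the reads of one may belong to the other. The 4 lymphatic endothelial markers *Pdpn*, *Flt4*, *Ccl21a* and *Mmrn1* summed to 25.9 normalized counts per kb on day 0, 1.90 on BDL day 3 and 13.2 on BDL day 14. All 4 were lower than on day 0 on BDL day 3, with a median log2 ratio of -4.13, and 3 of the 4 on BDL day 14, with a median of -0.66. *Flt4*, the receptor VEGFR3, was the exception on BDL day 14, with means of 61.0, 10.7 and 66.4. Their part in the values of *Prox1* was not tested.

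**Figure D2:**
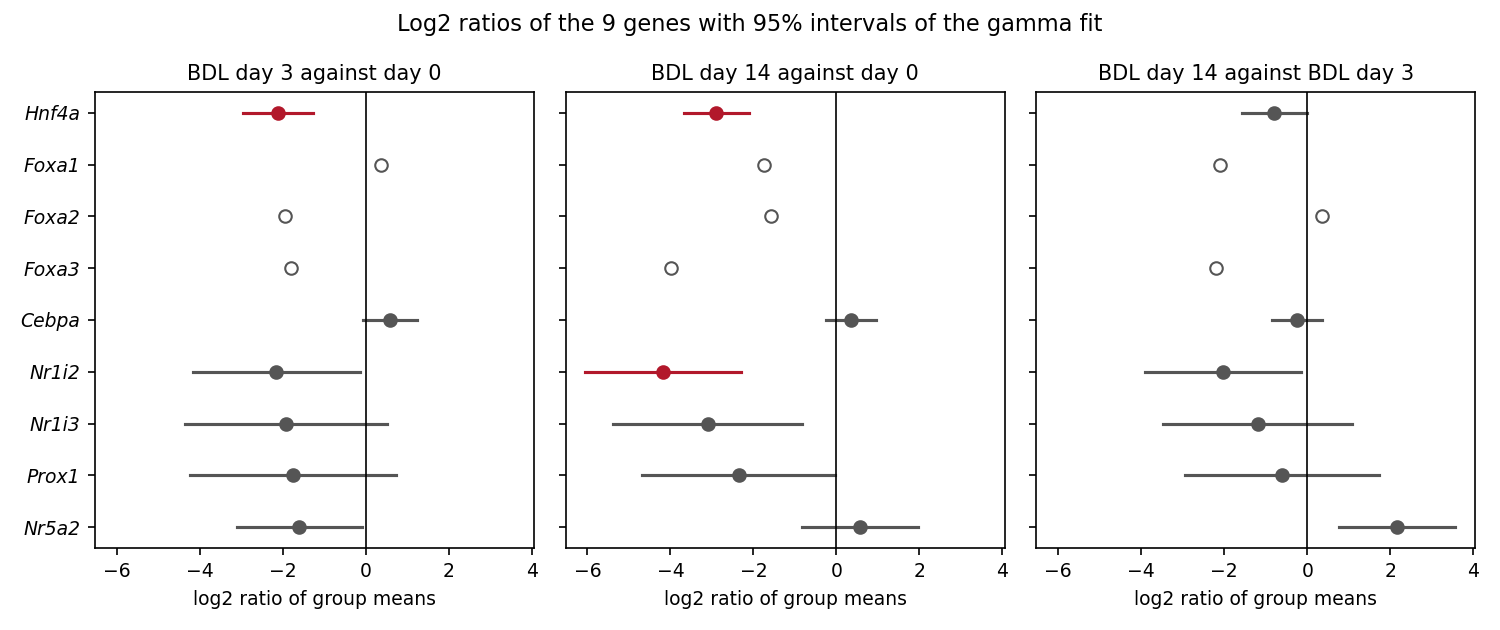
Log2 ratio of group means for each gene in the 3 comparisons. Filled points have 95% intervals of the gamma fit that are not adjusted for the number of genes, red marks an adjusted p of 0.05 or less, and open points are the 3 genes that were not tested. Red points are *Hnf4a* at -2.10 and -2.89 and *Nr1i2* at -4.17.

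Among the 9, levels on day 0 were compared per kb of annotated exon. *Cebpa* stood first with 41.0 normalized counts per kb, followed by *Hnf4a* (5.76), *Nr1i2* (2.74), *Foxa3* (1.10), *Nr5a2* (1.03), *Nr1i3* (0.909), *Foxa2* (0.688), *Prox1* (0.381) and *Foxa1* (0.185). The library ranges separate *Cebpa* from *Hnf4a* and *Nr1i2* from *Foxa3*, and all other neighbours in this order can overlap. On BDL day 3 *Cebpa* and *Hnf4a* were again first, with 61.8 and 1.34 normalized counts per kb. On BDL day 14 *Cebpa* had 52.0, *Nr5a2* 1.53 and *Hnf4a* 0.775 normalized counts per kb, and the ranges separate only *Cebpa* from its neighbour.

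Over all 9 members the median log2 ratio was -1.80 on BDL day 3, -2.36 on BDL day 14 and -0.79 between them, against -0.02, -0.04 and -0.00348 over all tested genes. Of the 6 tested members, 5 were more than 1.5-fold lower on BDL day 3 and 4 on BDL day 14, where 29.2% and 28.8% of all tested genes were. Among these members, *Nr1i2*, *Nr1i3* and *Prox1* reached the minimum summed count only through day 0, the group where they were highest. The filter thus favoured members that fall, and the counts of lower members here and below carry this limit. *Cebpa* was the 1 member more than 1.5-fold higher on day 3, and there was none on day 14, where 19.2% and 21.2% of all tested genes were. Between the BDL days, 4 of the 6 were lower by this measure and *Nr5a2* was higher, as 19.7% and 21.2% of all tested genes were. The gamma fit called 1 of the 6 lower on BDL day 3 and 2 on BDL day 14, where it called 4.6% and 8.82% of all tested genes lower. It called 0 members higher at either time, where it called 2.82% and 5.38% of all tested genes higher, and 0 in either direction between BDL day 14 and BDL day 3, where it called 3.73% lower and 3.31% higher. Of the genes past 1.5-fold against day 0, 60.3% and 57.6% were lower on the 2 BDL days as deposited, and 45.1% and 45.7% after quantile normalization of the group means. At an unadjusted p under 0.05, the gamma fit had 3 members lower and 0 higher on each BDL day against day 0, and 2 lower (*Hnf4a* and *Nr1i2*) and 1 higher (*Nr5a2*) between the BDL days. Day 0 libraries lay wholly above those of BDL for 3 of the 9 members at both times, where this held for 2.7% of all listed genes on BDL day 3 and for 2.99% on BDL day 14. Both comparisons use the same 3 day 0 libraries, so they do not stand independently. Under quantile normalization of the group means the member medians were -0.86 and -1.51.

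**Figure D3:**
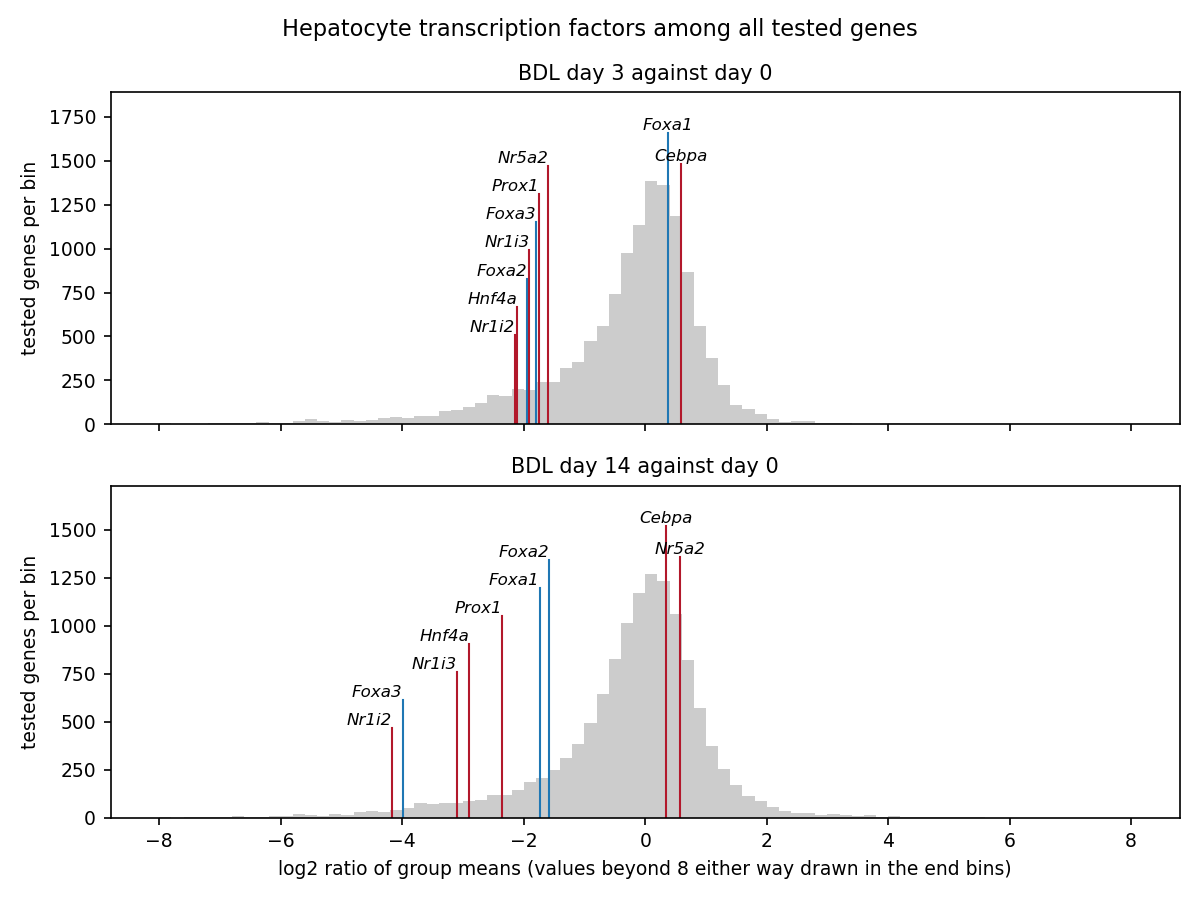
Distribution of the log2 ratio of group means over the 12891 tested genes (grey bars, genes per bin) on BDL day 3 and BDL day 14 against day 0. Lines mark the 9 members, red where tested and blue where not. At day 14, 7 members lie left of 0, and *Cebpa* (0.34) and *Nr5a2* (0.57) lie right of it.

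Other regulators of the hepatocyte were read from a list of 14, of which 13 are listed in the table and 9 were tested. On BDL day 14, 2 of the 9 fell, 0 rose (0 higher also at an unadjusted p under 0.05) and the median log2 ratio was -2.06. They were *Creb3l3*, a fasting-response factor of liver, at -3.31 (SE 0.52, limma-moderated adjusted p = 0.00146), and *Atf5*, a stress-response factor with means of 26.1, 9.23 and 5.01, at -2.38 (SE 0.55, limma-moderated adjusted p = 0.0116). A single library held 59.6% of the day 0 total of *Atf5*, and without it the log2 ratio was -1.66 and did not pass (limma-moderated adjusted p = 0.0821). *Creb3l3* is named here because of its call, while *Rxra*, *Atf5*, *Zbtb20* and *Klf15* had the highest day 0 means. On BDL day 3, 0 of the 9 passed the gamma fit, 3 were lower at an unadjusted p under 0.05 and the median was -1.50. Of all tested genes, the gamma fit called 4.6% lower on BDL day 3 and 8.82% on BDL day 14, and 2.82% and 5.38% higher. Among biliary regulators, *Sox4* fell on BDL day 3 (8.40 to 0.723, log2 ratio -3.54, SE 0.73, limma-moderated adjusted p = 0.0193) and rose from there to 6.16 on BDL day 14 (log2 ratio 3.09, SE 0.68, limma-moderated adjusted p = 0.0266). The biliary regulators *Ehf*, *Sox9* and *Elf3* did not pass in any comparison.

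Several known target genes of HNF4A, of the FOXA factors and of C/EBP alpha fell at both times. Of 9 listed HNF4A targets, 4 fell on BDL day 3 and 7 on BDL day 14, with median log2 ratios of -1.69 and -2.65. With the highest library of each gene left out where the sums place it in 1 group, 1 fell on BDL day 3 and 6 on BDL day 14. Of all tested genes, the gamma fit called 4.6% lower and 2.82% higher on BDL day 3. On BDL day 14 it called 8.82% lower and 5.38% higher. *Ttr* is counted both among the HNF4A targets and among those of the FOXA factors and C/EBP alpha. *Ttr*, which encodes transthyretin, had means of 152, 37.4 and 14.7 and fell by 3.37 on the log2 scale on BDL day 14 (SE 0.35, limma-moderated adjusted p = 0.000081). *Apoa1*, the main HDL apolipoprotein, had means of 152, 109 and 45.7, and *Apoa2* had 109, 33.7 and 12.7. Both *Apoa2* and *Apob*, which had 45.4, 9.32 and 7.25, passed at both times. Without their highest day 0 library they did not pass on BDL day 3, with limma-moderated adjusted p = 0.0656 for *Apoa2* and 0.127 for *Apob*. *F7*, coagulation factor VII, went the other way and was chosen after its values were seen: it rose by 2.40 on the log2 scale on BDL day 14 (SE 0.53, limma-moderated adjusted p = 0.0129). Of 8 targets of the FOXA factors and C/EBP alpha, 3 fell on BDL day 3 and 6 on BDL day 14 (3 and 5 without the highest libraries), with medians of -1.38 and -3.0. *Alb*, which encodes albumin, had means of 2440, 642 and 271 and fell by 3.17 (SE 0.34, limma-moderated adjusted p = 0.000083), and *Pck1*, an enzyme of gluconeogenesis, had means of 101, 20.8 and 14.2.

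Targets of PXR and CAR went in both directions. Of the 8 tested, 2 rose and 0 fell on BDL day 3 by the gamma fit (at an unadjusted p under 0.05, 2 were higher and 1 lower), and 1 rose and 1 fell on BDL day 14 (1 higher and 3 lower at an unadjusted p under 0.05), with median log2 ratios of -0.32 and -0.85. *Abcc3*, a bile acid and conjugate exporter, had means of 125, 375 and 153 and rose on BDL day 3 (log2 ratio 1.58, SE 0.30, limma-moderated adjusted p = 0.00801). *Por*, the electron donor of the cytochromes P450, had means of 35.0, 93.2 and 76.3 and was called higher at both times. The gamma fit called 2.82% and 5.38% of all tested genes higher at these times, and 4.6% and 8.82% lower. *Cyp3a11*, a textbook PXR target, had means of 28.3, 37.7 and 12.2 and did not pass (limma-moderated adjusted p = 0.111 on BDL day 14). The gene called lower on BDL day 14 was *Ces2a*, a carboxylesterase, at -4.22 (SE 1.03, limma-moderated adjusted p = 0.0221), and it did not pass without its highest day 0 library, which held 55.2% of that group's total (limma-moderated adjusted p = 0.0659). Among LRH-1 targets, *Cyp7a1*, the rate-limiting enzyme of bile acid synthesis, was listed at 0.823, 0.452 and 0.0843 and was not tested. Of the 2 that were tested, *Scarb1* had means of 111, 254 and 124 and *Cyp8b1* 2.20, 1.40 and 0.178, and neither passed the gamma fit (at an unadjusted p under 0.05, *Scarb1* was higher on BDL day 3 and *Cyp8b1* lower on BDL day 14).

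**Figure D4:**
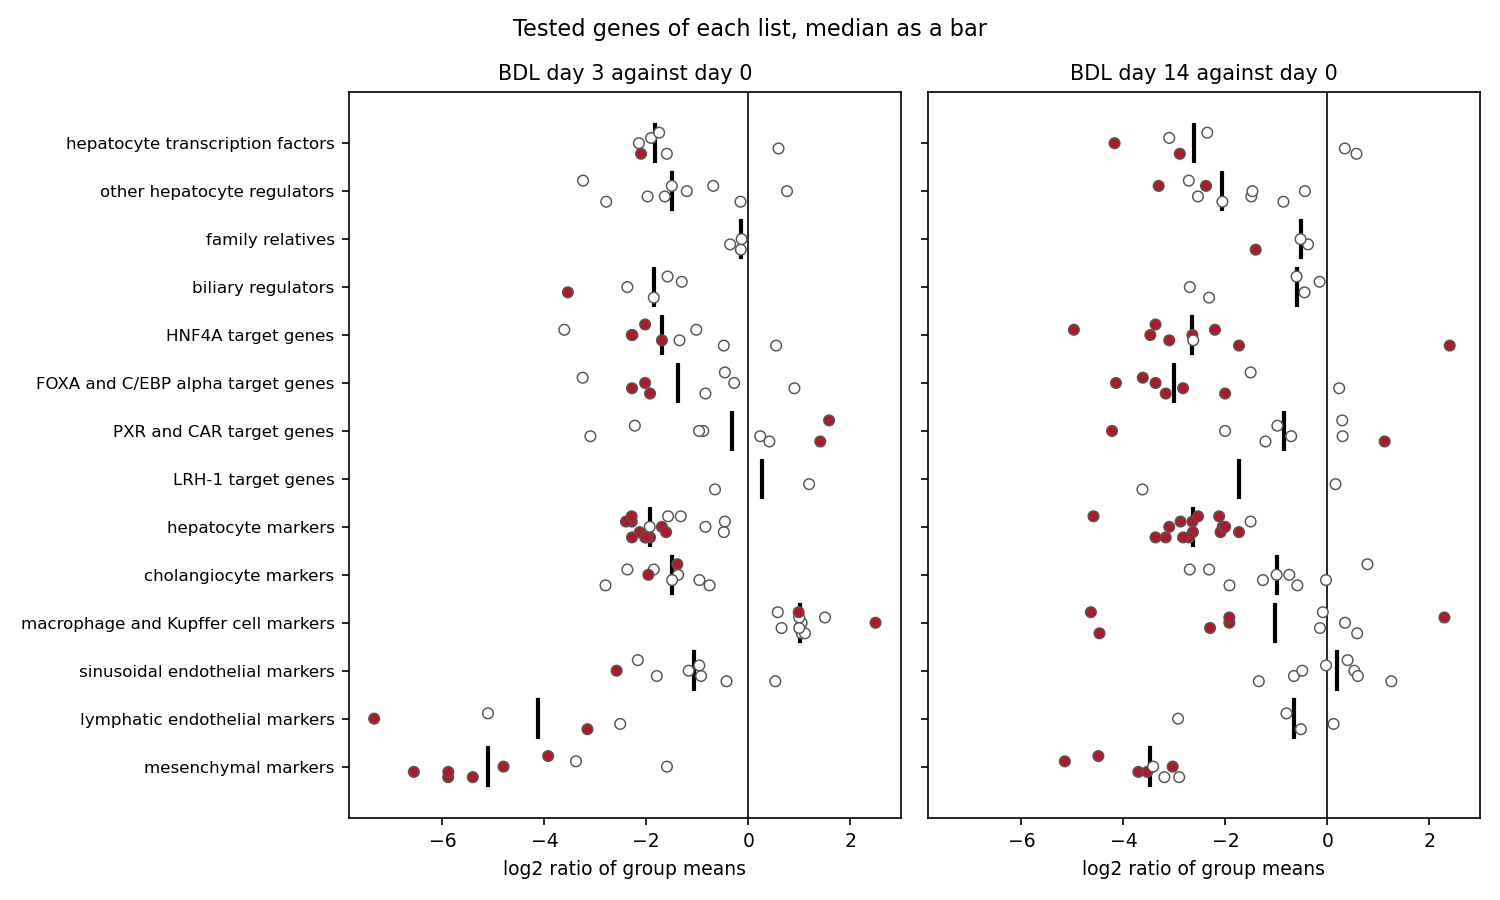
Log2 ratio of group means for the tested genes of each list on BDL day 3 and BDL day 14 against day 0. Each point is a gene, red where the adjusted p of the gamma fit was 0.05 or less, and the bar is the list's median, which for the 6 tested members was -1.83 and -2.63. Hepatocyte transcription factors, HNF4A targets and hepatocyte markers lie mostly left of 0 on day 14, and macrophage markers lie right of 0 on day 3.

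Markers of several cell types also changed, and not all in the direction of most of these genes. All 16 hepatocyte markers were lower than on day 0 at both times, 10 of them past the test on BDL day 3 and 15 on BDL day 14, or 4 and 14 with the highest library of each gene left out where it can be placed. Of all tested genes, the gamma fit called 4.6% lower and 2.82% higher on BDL day 3, and 8.82% and 5.38% on BDL day 14. Many of the 16 hepatocyte markers are also targets above. Their summed level was 2290 normalized counts per kb on day 0, 664 on BDL day 3 and 293 on BDL day 14, and none was at the floor. The 10 macrophage and Kupffer cell markers summed to 6850, 15100 and 10100 normalized counts per kb, the highest of these marker lists in every group. *Lyz2*, which encodes lysozyme, made up 1730, 3460 and 8510 of this, and the other 9 summed to 5120, 11600 and 1570. On BDL day 3 all 10 were above day 0 and 2 passed, while on BDL day 14 there were 7 below it, 5 of them past the test, with a median log2 ratio of -1.03. The 12 cholangiocyte markers summed to 312, 120 and 499 normalized counts per kb, most of it in every group from *Spp1*, which encodes osteopontin, and the other 11 to 33.0, 13.8 and 18.3. Of the 9 tested, 9 were below day 0 on BDL day 3 and 8 on BDL day 14, with medians of -1.49 and -0.99, and 2 and 0 of them passed as lower. *Spi1*, a myeloid factor, had means of 200, 397 and 188, and *Prom1* itself had 6.66, 0.956 and 1.76. The 8 mesenchymal markers summed to 211, 4.35 and 19.2 normalized counts per kb. All 8 were below day 0 at both times, with median log2 ratios of -5.10 and -3.48, where those of the hepatocyte markers were -1.93 and -2.64. Of these 8, 6 passed on BDL day 3 and 5 on BDL day 14, or 3 and 5 with the highest libraries left out. In these sorted bulk samples, fewer cells of a type and less RNA per cell cannot be told apart, and the part of these cell types in the changes of the 9 factors was not tested.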

How the data were processed

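GFP(+) cells from 3 groups were profiled by mRNA sequencing. Per the labels and the study's methods, the authors aligned trimmed reads to mm10 with STAR (version 2.6.1d in the submitters' processing notes, another in the methods) and quantified genes in Partek Flow, with upper quartile normalization. The deposited values are signal values: the authors' mean of normalized counts per group and, over all 10 libraries, their sum, arithmetic mean, geometric mean and highest value. Columns of values per library numbered 0. Its columns of the authors' own comparisons (p-value, FDR, ratio, log2 ratio, fold change and 95% limits) were not used. The group sizes behind the means, 3, 3 and 4, were checked by rebuilding the overall mean from the group means, which left a deviation of 0.469% at the 99th percentile of genes and of 2.7% for the nearest other set of sizes.

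The planned result was the log2 ratio of group means with no test. After the columns had been seen, a gamma model with 1 mean per group and a log link was added. Its residual deviance needs only the group means and the geometric mean. The deviance over 7 residual degrees of freedom was moderated with squeezeVar of limma 3.58.1 (R 4.3.3) with a trend on the mean, which gave 14.1 degrees of freedom. Each comparison was tested with an F test, two-sided, and adjusted by the Benjamini-Hochberg method over 12891 genes (76% of those listed) with a summed normalized count of at least 10. Calls were made up to an adjusted p of 0.05. The range of each library was bounded from the sums, the highest value and the geometric mean, rounding included. On simulated data for BDL day 14 against day 0, 200 genes were changed among 12891. The fit recovered 62 of 100 genes changed by 2 and 91 of 100 changed by 3 on the log2 scale. It made 6 false calls, and 0 libraries lay outside their range. The simulated spread was chosen and not fitted to these libraries, so these numbers may not hold for the members with few counts.

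Exon lengths are from GENCODE M21, and promoters are from RefSeq. The GENCODE coordinates match those of the table for every member and every gene of the lists that the table holds, and other genes were not compared. The named genes are all 9 members, up to 4 genes per list by highest day 0 mean, and the 5 genes most like Hnf4a, with exceptions stated in the text; some genes that this rule names are not reported here. The members and lists were chosen with earlier results of these data known. Alternatives were a pseudocount of 1, other scalings, filters and fold minimums, variances that were not moderated, worst-case rounding and leaving out the highest library of a gene where the sums place it in 1 group.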

Additional observations from a re-analysis of the deposited data

How the results depend on the processing

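No paired analysis was possible because the table's columns are group means and carry no replicate numbers, and for the same reason replicates could not be left out in turn except for the highest library of a gene. Of 279 alternative values, 253 were classed as the same. For a log2 ratio this meant a move smaller than the spread, and for a count a value within 1.5-fold of the main count. For an adjusted p it meant the same direction and call. Without its highest library, Foxa2 had log2 ratios of 1.16 on BDL day 3 and 1.52 on BDL day 14 in place of negative ones, and the log2 ratio of Nr5a2 on BDL day 14 turned just negative (limma-moderated adjusted p = 0.974). Nr1i2 lost its call on BDL day 14 when variances were not moderated (adjusted p = 0.0532, without limma's moderation). Without moderation the gamma fit called 305, 1046 and 299 genes in the 3 comparisons (BDL day 3 with day 0, BDL day 14 with day 0 and BDL day 14 with BDL day 3, here and below in this order) in place of 957, 1831 and 908. Genes past 1.5-fold numbered 6235, 6437 and 5271. A mean of at least 10 left 2769, 2975 and 2301 of them, a fold above 2 left 3633, 3781 and 2985, and without a filter there were 9545 for the first and 8242 for the last. With a pseudocount of 1, 4 members in place of 7 were past 1.5-fold between the BDL days. Genes whose libraries cannot overlap numbered 253, 205 and 74 from sums and highest values, 70, 65 and 44 at a mean of at least 10, and 624, 607 and 318 with the geometric mean added. Quantile normalization moved the median of all tested genes from -0.02 to 0.11 on BDL day 3 and from -0.04 to 0.10 on BDL day 14, and the log2 ratios of all 9 members kept their sign under it in the 3 comparisons. The cause of these shifts was not tested, apart from the fewer genes or libraries that a filter, a higher fold or a left-out library allows. The members below about 10 normalized counts limit what can be shown: for Prox1 the 95% interval on BDL day 14 runs from -4.69 to -0.03, and Foxa1, Foxa2 and Foxa3 could not be fitted among the tested genes. This Prox1 interval just leaves out 0, while the F test of the gamma fit gave an unadjusted p of 0.0507.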

Other observations

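Among the 5 genes whose pattern was most like that of Hnf4a were Thy1, Ly6a, Ndrg2 and Serpinf2. They were found among 7365 genes outside the lists with a day 0 mean of at least 10, by the distance between the log2 ratios of BDL day 3 and BDL day 14 to day 0, which was 0.03 for Thy1 and 0.09 for Serpinf2. Serpinf2 encodes alpha 2-antiplasmin, which is made by hepatocytes, and had means of 24.5, 5.81 and 3.1 normalized counts in the 3 groups. Thy1 and Ly6a encode surface proteins that are not hepatocyte products, and had means of 29.8, 7.06 and 4.01 and of 226, 55.2 and 29.7. Ndrg2 had means of 68.7, 16.3 and 8.74. The likeness rests on 2 ratios that share the day 0 libraries, and no test was made of it.

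Vdr, which encodes the vitamin D receptor and belongs to the same receptor family as PXR and CAR, was listed at 0.128 on day 0, the lowest mean of that group, and at 0.983 on BDL day 3 and 1.53 on BDL day 14. Its highest library, at 3.06 normalized counts, was a BDL day 14 library. Vdr was under the minimum for testing.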
